A study of Mus musculus with 9 samples.

Results

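The 2 mature miRNAs of the mouse Mir126a hairpin, mmu-miR-126a-3p and mmu-miR-126a-5p (below without the species prefix), were followed in small RNA libraries of tibialis anterior (TA) muscle. They were found by their names among the 1915 rows of each of 9 count tables, of which 304 rows exceeded 32 counts in 1 library or more and are called expressed below. Both arms exceeded that minimum in every library. They were chosen by measured values as well as by name, since the control against LLC difference of both arms was already known, so that difference and the change of the 5p to 3p ratio are described without a test.

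The libraries came from 4 control mice, injected with PBS in each flank, and 5 LLC mice, injected with 750000 Lewis Lung Carcinoma cells in each flank. The LLC line derives from a lung carcinoma of a C57BL mouse and is used as a model of cancer cachexia, the loss of muscle and fat that accompanies a tumor. Muscles were taken 22 days after the injection. The mice were 10 weeks old and C57BL/6J in the sample labels, and 8 weeks old, male and C57BL/10 in the series description, and neither group carried a transgene or deletion according to the labels. The sixth LLC mouse of the study, number 4, was not analysed here.

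MicroRNA hairpins are cut into a short duplex whose strands, named 5p and 3p after their side of the hairpin, can each be loaded into an Argonaute protein and repress mRNAs with a match to the seed near the 5′ end. Mir126a is transcribed with its host gene Egfl7, which encodes a protein secreted by endothelial cells. The miRNA is known for its enrichment in endothelial cells, and its 3p arm promotes the response to VEGF by repressing Spred1 and Pik3r2, both inhibitors of the pathway. In skeletal muscle the arms are therefore often read as a sign of the capillary bed. In a whole muscle, fewer endothelial cells and less of the miRNA per cell cannot be told apart.

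The sequences below are from RefSeq on GRCm38.p6 and show why 4 rows of the tables belong to 1 locus. The first is the mature 3p arm with its seed, bases 2 to 8, in capitals. The second is the whole 73-base hairpin with the 3p arm in capitals.
mmu-miR-126a-3p: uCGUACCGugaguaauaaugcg
Mir126a hairpin: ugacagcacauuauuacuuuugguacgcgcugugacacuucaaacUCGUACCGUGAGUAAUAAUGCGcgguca
The hairpin lies at chr2:26591357-26591429 on the plus strand and the 3p arm at chr2:26591402-26591423. In the GENCODE annotation, Egfl7 spans chr2:26580014-26593120 on the same strand. Of 9 Egfl7 transcripts that span the hairpin, 8 have it within an intron and 1, a retained intron transcript, within an exon. No other of the 1679 mature miRNAs in the RefSeq table carried the seed of miR-126a-3p.

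The 2 arms of miR-126b, an entry on the opposite strand of the same locus, are shown because their counts bear on those of miR-126a. In miR-126b-3p all 23 bases, in capitals, are the reverse complement of bases 7 to 29 of the Mir126a hairpin, on its 5p side. In miR-126b-5p the 19 bases in capitals are the reverse complement of bases within miR-126a-3p.
mmu-miR-126b-3p: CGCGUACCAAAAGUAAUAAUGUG
mmu-miR-126b-5p: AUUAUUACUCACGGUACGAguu
The count of miR-126b-3p was above that of miR-126a-5p by only 7 to 21 in each of the 9 libraries, at counts of 125221 to 204912 for miR-126a-5p. The authors kept every best alignment of a read, and no strand setting is given in the sources used here, so reads of these entries cannot be told apart by strand. The miR-126b-3p row was therefore not read as a further measure. The miR-126b-5p row was no such copy and held 155 to 520 counts, 1.61 to 2.38% of the miR-126a-3p count.

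The total count per library was 4992339 to 7833161, at which 3 counts, taken as the smallest level the depth could show, were 0.383 to 0.601 CPM before scaling. Levels are given as CPM scaled by edgeR's TMM factors, which were 0.762 to 1.15 and lowest in LLC 5 (0.762) and LLC 1 (0.876). In these 2 libraries miR-10b-5p took 32.4% and 25.1% of all counts, against 10.1 to 19.3% in the other libraries. The myofibre miRNA miR-133a-3p was at 20321 ± 3384 CPM in the control group (SD, n = 4) and 18718 ± 1381 CPM in the LLC group (SD, n = 5), as the tissue label would have it, whereas miR-1a-3p, usually among the most abundant miRNAs of muscle, had only 62 to 171 counts and miR-206-3p at most 3.

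The 3p arm was lower in the LLC group on average, and more variable there. In the control libraries miR-126a-3p was at 2776, 3094, 2856 and 2742 CPM in mice 1 to 4. In the LLC libraries it was at 1969.8, 2509, 2752, 1781 and 2548 CPM in mice 1, 2, 3, 5 and 6. LLC 1 and LLC 5 were lowest, LLC 3 stood within the control range, and the other 4 LLC libraries were below every control library. The group means were 2867 ± 159 CPM (SD, n = 4) and 2312 ± 415 CPM (SD, n = 5), 80.6% of the control mean. The log2 fold change from the edgeR fit was -0.31 with a standard error of 0.13. Without LLC 1 and LLC 5, the libraries with the largest miR-10b-5p share, it was -0.11.

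The 5p arm was far more abundant and differed less between groups. In the control libraries miR-126a-5p was at 23435, 24631, 31073 and 27734 CPM in mice 1 to 4. In the LLC libraries it was at 26127, 26049.5, 27219, 24718 and 21615 CPM in mice 1, 2, 3, 5 and 6. The LLC values lay within the control range except in LLC 6, the lowest of all 9 libraries. The means were 26718 ± 3422 CPM (SD, n = 4) and 25146 ± 2164 CPM (SD, n = 5), and the difference between them was below the SD of either group. The log2 fold change was -0.09 with a standard error of 0.13, smaller than its own error, and it changed sign to 0.04 with upper quartile factors and to 0.0046 when scaled to miR-133a-3p and miR-133b-3p. By mean CPM miR-126a-5p ranked 10 and miR-126a-3p 24 among the expressed miRNAs.

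**Figure D1:**
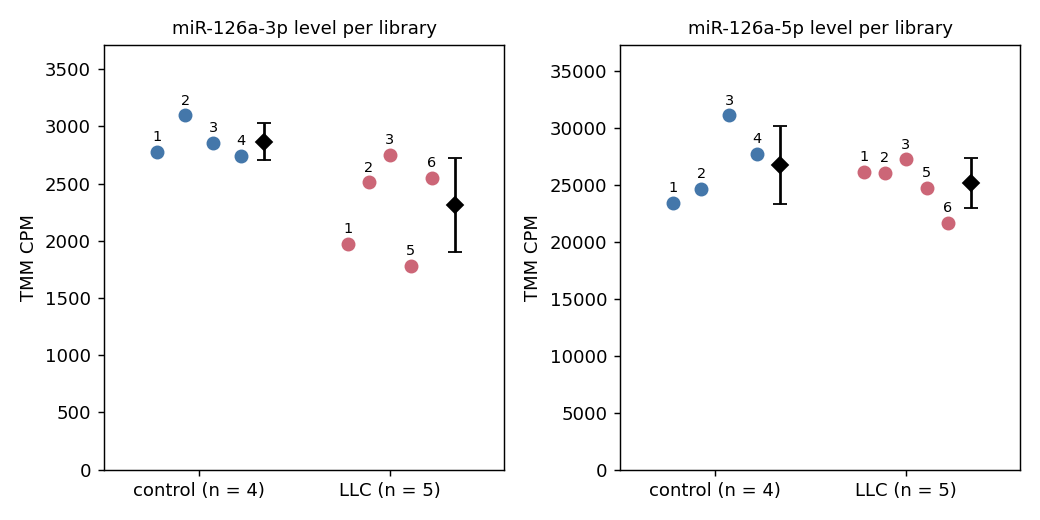
TMM-scaled CPM of miR-126a-3p (left) and miR-126a-5p (right) in each library, numbered by mouse, with the axes starting at 0. Diamonds and bars are the group mean ± SD. The 3p arm is lowest in LLC 5 (1781 CPM) and LLC 1 (1969.8 CPM), whereas the 5p arm of these libraries lies within the control range.

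None of the 304 miRNAs passed an edgeR adjusted p of 0.05 together with a fold change of 1.5 (0.00%), so 0 of the 2 arms did. At an unadjusted p of at most 0.05, 50 of the 304 passed, 34 of them lower in LLC mice (11.2%) and 16 higher (5.26%). One arm, miR-126a-3p, was among the lower ones, from which nothing is read because the contrast was known when the arms were chosen. DESeq2 called 8 of the 304 and limma with voom 0, and the log2 fold changes of the arms were below the fold threshold in every fit. The size of the difference varied with the scaling. As plain shares of all counts, miR-126a-5p held 2.82 ± 0.118% in control mice and 2.41 ± 0.381% in LLC mice, and 4 of the 5 LLC libraries were below every control library. With library totals alone the median log2 fold change of all 304 miRNAs was -0.17, against -0.02 with TMM factors. Relative to the median of the same scaling, the 3p arm was at -0.29 to -0.26 and the 5p arm at -0.07 to -0.06 over 6 scalings. A scaling factor shifts all miRNAs of a library alike, so these narrow ranges follow largely from the subtraction.

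The sum of both arms mostly follows the 5p arm. It was 29586 ± 3392 CPM in control mice (SD, n = 4) and 27458 ± 2220 CPM in LLC mice (SD, n = 5), a difference of -0.10 on the log2 scale that was smaller than the spread between libraries of a group (0.14). With upper quartile factors it was 0.02.

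The ratio of 5p to 3p counts does not depend on scaling, because both counts come from the same library. In the control libraries there were 8.44, 7.96, 10.9 and 10.1 counts of 5p per count of 3p in mice 1 to 4. In the LLC libraries there were 13.3, 10.4, 9.89, 13.9 and 8.48 in mice 1, 2, 3, 5 and 6. LLC 1 and LLC 5 lay above all control libraries and the remaining LLC libraries lay within the control range. The means were 9.35 ± 1.38 (SD, n = 4) and 11.2 ± 2.30 (SD, n = 5). On the log2 scale the LLC ratio was higher by 0.25, below the spread within groups of 0.27, and by 0.04 without LLC 1 and LLC 5. Counting error was small beside these differences. The 5p arm made up 88.8% (control 2; 95% Wilson interval 88.7 to 89.0%) to 93.3% (LLC 5; 93.1 to 93.4%) of the counts of both arms, and the intervals of 3 of the 36 pairs of libraries overlapped. The intervals cover counting error only, because PCR copies were not told apart by molecular identifiers.

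The ratios were set beside the make-up of the libraries. In the control group the miR-10b-5p share was 12.6% in control 2, 10.1% in control 1, 17.0% in control 4 and 19.2% in control 3, in rising order of their ratios, so the order of control 1 and control 2 was reversed. In the LLC group the shares were 12.4% in LLC 6, 13.6% in LLC 3, 19.3% in LLC 2, 25.1% in LLC 1 and 32.4% in LLC 5, the same order as their ratios. After the mean of each group was removed, the log2 ratio and the miR-10b-5p share had r = 0.93 and rho = 0.95 over the 9 libraries. Without LLC 5 and LLC 1, the libraries farthest from the median share, r was 0.88.

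This relation was examined after the values of both measures had been seen, with 3 library measures in all, so these correlations are descriptions without a test. With the share of miR-22-3p, another abundant miRNA, r was -0.93 and rho was -0.92, and without LLC 5 and control 1 r was -0.96. With the total count r was -0.63 and rho was -0.73, and r was -0.38 without control 4 and LLC 6. What sets the ratio was not tested.

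**Figure D2:**
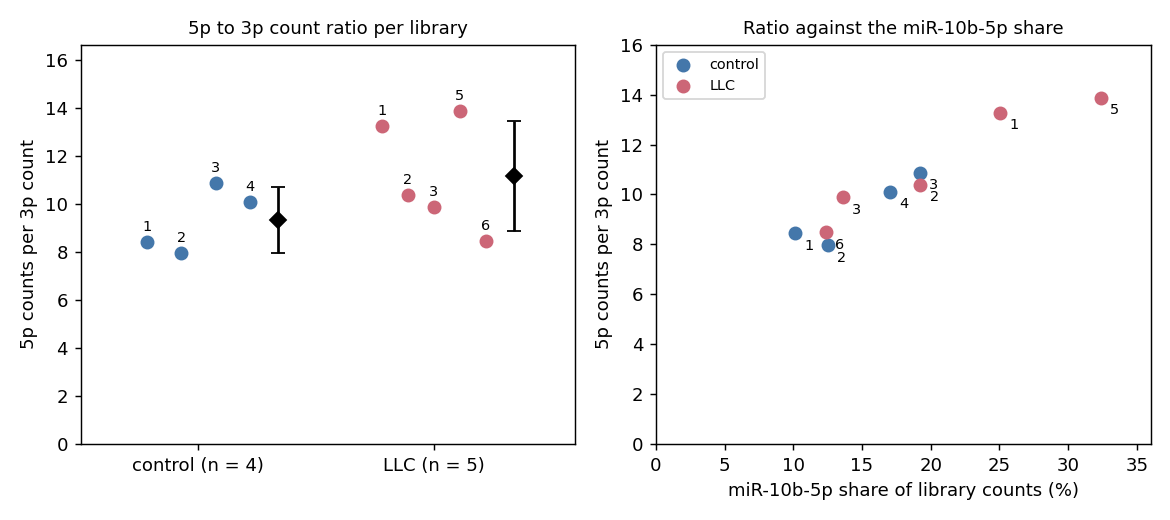
Left, 5p counts per 3p count in each library, numbered by mouse, with the group mean ± SD as a diamond and bar; right, the same ratio against the share of library counts taken by miR-10b-5p. The ratio is highest in LLC 5 (13.9) and LLC 1 (13.3), which have the largest miR-10b-5p shares, and control 3 and control 4 (10.9 and 10.1) lie above control 1 and control 2 (8.44 and 7.96) in both ratio and share.

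Other hairpins give the background for this ratio. Besides miR-126a and miR-126b, 72 hairpins had both arms above the count minimum. Their log2 5p to 3p ratio had a median correlation with the miR-10b-5p share of 0.06 within groups. The correlation was positive in 37 of the 72, and its absolute value reached that of miR-126a in 5. Positive and negative values offset each other in this median. It therefore does not show how strongly the ratios of other hairpins followed the share. Their ratio differed between LLC and control mice by a median of -0.05 on the log2 scale, with the sign kept. In 22 of the 72 it was higher in LLC mice by more than the 0.25 of miR-126a. This count leaves out hairpins whose ratio was lower in LLC mice, where differences reached -0.94 (miR-1843a). The ratio of miR-126a had an SD within groups of 0.27 against a median of 0.35, and 15 of the 72 were steadier. Many of the 72 had far lower counts than miR-126a. The pairs closest to it in depth lay on either side, miR-30a (lowest count 6661) at 0.22 and miR-151 (lowest count 6803) at 0.33. Among the 23 hairpins with at least 100 counts of each arm in every library the median SD was 0.29 and 10 were steadier than miR-126a. These pairs share libraries and differ in depth, so the counts are descriptions.

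If both arms measured the same endothelial content, libraries high in one arm could be high in the other. This also requires that content to vary between mice of a group by more than the arm ratio does. How much it varied was not measured, so the correlation does not decide whether the arms share a source. With TMM scaling and the group means removed, libraries high in one arm were not high in the other. The arms had r = -0.04 (two-sided exact permutation over 2880 rearrangements within groups, p = 0.94, adjusted p = 0.95) and rho = -0.03 (exact permutation p = 0.95, adjusted p = 0.95) over 9 libraries. Without LLC 5 and LLC 1, the libraries farthest from the median of the 3p arm, r was 0.06. Control 3 had the highest 5p level of all libraries and a 3p level at the control mean, and LLC 6 had the lowest 5p level and a 3p level above the LLC mean. With 9 libraries this p does not show that the arms are unrelated.

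The answer depended on the scaling. With library totals alone r was 0.80 (two-sided exact permutation, p = 0.044). Relative to the group means, both arms were then lowest in LLC 5 and highest in LLC 3. On the same totals without LLC 1 and LLC 5, r was 0.02 (exact permutation p = 0.97). Scaled to miR-133a-3p and miR-133b-3p, r was 0.55 (exact permutation p = 0.13). With RLE factors, upper quartile factors or totals without the 5 most abundant miRNAs it was -0.19 to 0.16. A scaling factor enters both arms of a library alike, and the part of shared scaling in these values was not tested.

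**Figure D3:**
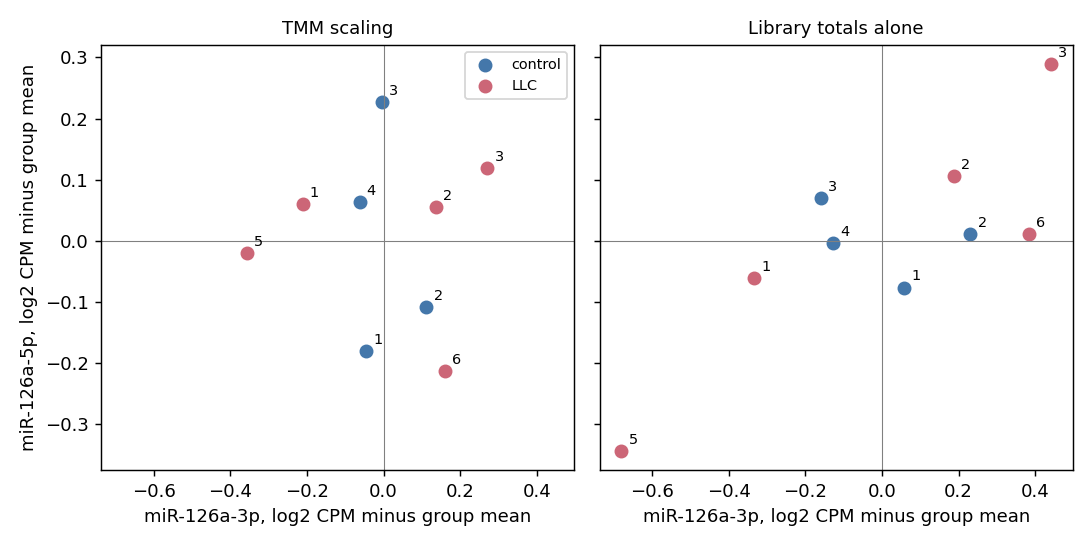
Level of miR-126a-5p against miR-126a-3p in each library, as log2 CPM minus the mean of its group, with TMM factors (left) and library totals alone (right), numbered by mouse. With TMM factors the points show no common direction (r = -0.04), and with library totals LLC 5 and LLC 3 lie at opposite ends of a rising pattern (r = 0.80).

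Disagreement between arms was common in these libraries. Over the 72 other hairpins the median correlation of the arms within groups was 0.00 (quartiles -0.30 and 0.35), and 43 of them had a higher value than miR-126a. Over the 23 with at least 100 counts of each arm in every library the median was 0.18 and 14 had a higher value. Both arms were on the same side of 0 in the LLC against control fold change in 31 of the 72 with TMM factors, as they were for miR-126a, and both were lower in 22.

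**Figure D4:**
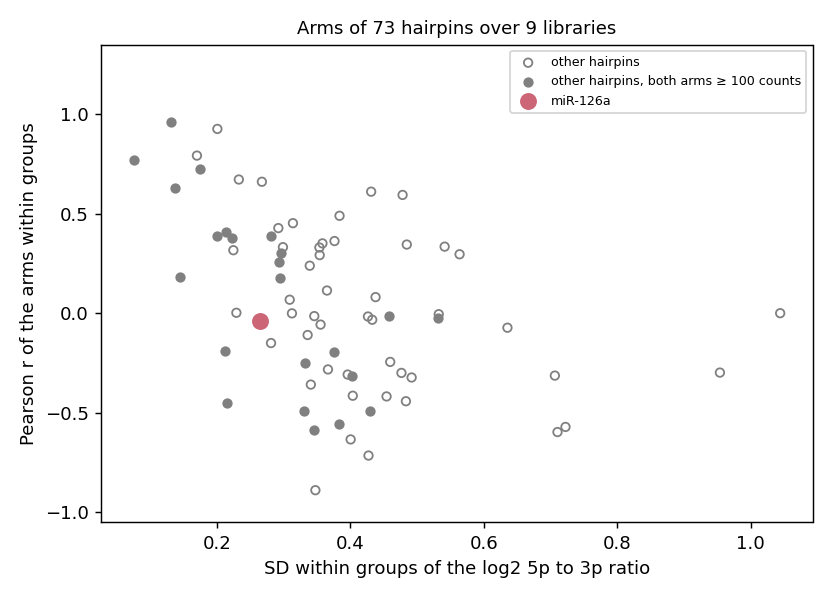
Correlation of the arms (vertical axis, TMM-scaled log2 CPM, group means removed) against the SD within groups of the log2 5p to 3p ratio (horizontal axis) for miR-126a and 72 other hairpins, filled where both arms have at least 100 counts in every library. The miR-126a point (r = -0.04, SD 0.27) lies in the middle of the correlations and to the left of the median SD of 0.35.

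The arms also resembled different miRNAs. Over the 9 libraries, with group means removed, the expressed miRNAs most like miR-126a-3p were miR-144-5p (r = 0.96), miR-101b-3p (r = 0.93) and miR-16-5p (r = 0.93). Those most like miR-126a-5p were its near copy miR-126b-3p (r = 1.00), miR-132-3p (r = 0.88) and miR-23b-3p (r = 0.85). These are the highest of 302 values per arm and are given as descriptions. The medians over all 302 were 0.14 for the 3p arm and -0.09 for the 5p arm.

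Other miRNAs known from vessels had fold changes on both sides of 0. All 13 that were listed passed the count minimum, 7 were lower and 6 higher in LLC mice, and their median log2 fold change was -0.01, against -0.02 over all 304. Over the 6 scalings this median was -0.15 (library totals alone) to 0.13 (upper quartile factors), as the median of all miRNAs shifted likewise. None was called, and only miR-218-5p was among the 50 miRNAs with a low unadjusted p (log2 fold change -0.65, SE 0.29, edgeR adjusted p = 0.29). The most abundant, miR-27b-3p, which represses endothelial targets of sprouting, was at 30935 ± 1209 CPM in control mice (SD, n = 4) and 28191 ± 2723 CPM in LLC mice (SD, n = 5). Its log2 fold change was -0.13 (SE 0.13). For miR-222-3p, which targets the receptor Kit in endothelial cells, and for miR-24-3p the log2 fold change was 0.21 (SE 0.25 and 0.12).

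The cells that surround endothelium gave mixed values. Of 4 smooth muscle and pericyte miRNAs 3 passed the minimum and none was called, with a median log2 fold change of 0.11 that was -0.01 with library totals alone. Their most abundant member, miR-143-3p, which acts with miR-145a in the contractile state of smooth muscle, had a log2 fold change of 0.34 (SE 0.18), miR-145a-3p had 0.11 (SE 0.23) and miR-145a-5p -0.10 (SE 0.12). The summed level of this list was 49530 to 65259 CPM in control libraries and 51105 to 94931 CPM in LLC libraries. Of the 5 fibroblast miRNAs 4 were lower (5 with library totals alone) and none was called, with a median of -0.33. The values were -0.51 (SE 0.18) for miR-199b-5p, -0.45 (SE 0.20) for miR-214-5p and -0.33 (SE 0.12) for miR-199a-5p, all with an edgeR adjusted p of 0.21 or above, and 0.08 (SE 0.18) for the abundant miR-199a-3p. In miR-199b-5p the groups did not overlap, as in 4.28% of the 304 miRNAs in this direction.

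The erythroid miRNAs had lower fold changes than either arm. The 3 erythroid miRNAs had log2 fold changes of -0.76 (miR-451a, SE 0.20), -0.73 (miR-144-3p, SE 0.26) and -0.83 (miR-144-5p, SE 0.25), with edgeR adjusted p of 0.10, 0.21 and 0.16, so none was called. Their summed level was 215 to 325 CPM in control libraries and 92.4 to 219.8 CPM in LLC libraries, and none of them was at 0. The groups did not overlap for 2 of the 3, miR-451a and miR-144-5p, against 4.28% of the 304 miRNAs in this direction. The miR-144 arms come from 1 hairpin and had r = 0.93 within groups, so the 3 rows are not separate markers. The part of residual blood in the level of miR-126a-3p was not tested.

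Among the 5 leukocyte miRNAs, with a median of 0.07 (-0.09 with library totals alone), none was called. The myeloid miR-223-3p was higher by 0.70 (SE 0.18, edgeR adjusted p = 0.094) without overlap between groups, as were 1.64% of the 304 miRNAs. The lymphocyte miRNA miR-150-5p, the most abundant of the list, had -0.38 (SE 0.10, edgeR adjusted p = 0.10), without overlap in the lower direction (4.28% of the 304), and miR-142a-3p had 0.32 (SE 0.19). The list summed to 691 to 800.3 CPM in control libraries and 583 to 742 CPM in LLC libraries.

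The myofibre miRNAs, which come from the bulk of the tissue, had a median of -0.26, with all 5 expressed members on the lower side (4 of 5 when scaled to miR-133a-3p and miR-133b-3p) and none called. The values were -0.53 (SE 0.27) for miR-499-5p and -0.40 (SE 0.29) for miR-208b-3p, both encoded within slow myosin genes, -0.26 (SE 0.22) for miR-1a-3p and -0.12 (SE 0.14) for miR-133a-3p. The summed level was 21902 to 30874 CPM in control libraries and 20862 to 25266 CPM in LLC libraries. Set beside these lists, the 2 arms had fold changes of -0.31 and -0.09. The other vascular miRNAs ran from -0.65 to 0.21, with the low end set by miR-218-5p alone (14 to 60 counts). The next lowest of them was miR-27a-3p at -0.20, so the 3p arm was below the rest of that list. It was close to the fibroblast (-0.33) and myofibre (-0.26) medians. The abundant members of those lists were further from it, at 0.08 (miR-199a-3p), -0.12 (miR-133a-3p) and -0.14 (miR-133b-3p).

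**Figure D5:**
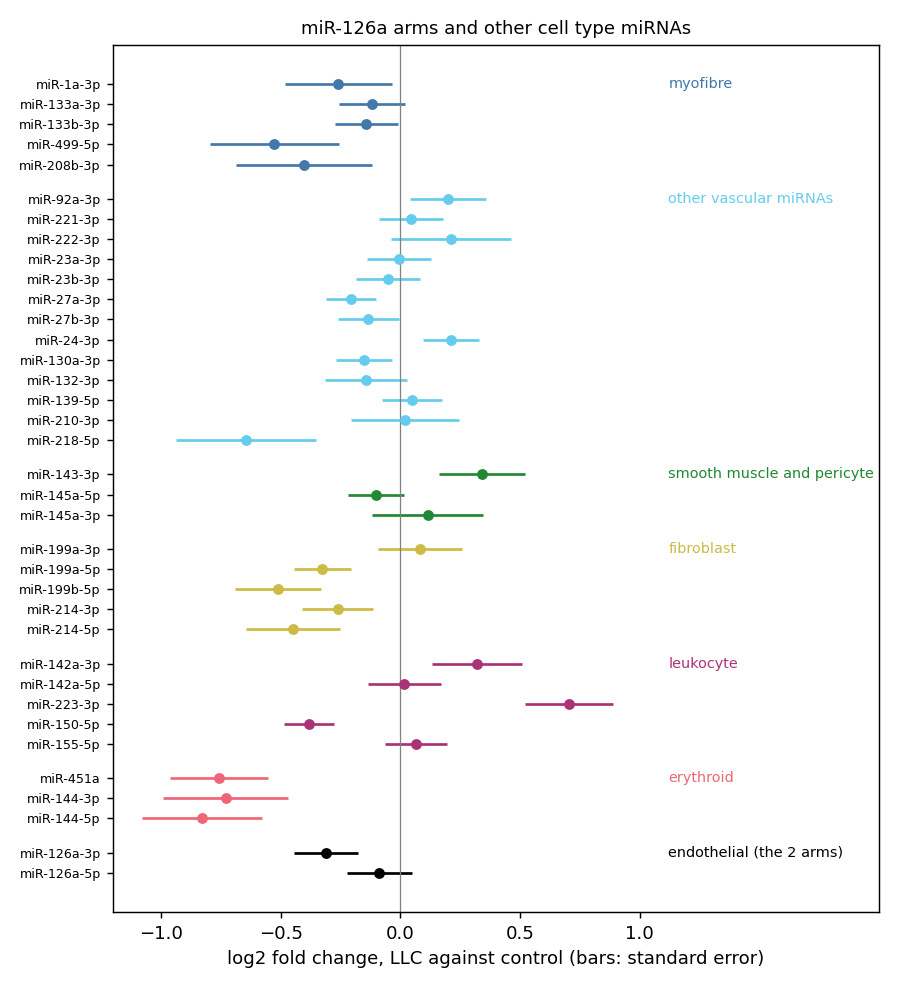
Log2 fold change of LLC against control with its standard error, from the edgeR fit, for the 2 arms and for the expressed members of 6 cell type lists; 0 marks no difference. The arms (-0.31 and -0.09) lie among the small differences, the erythroid miRNAs are furthest to the left (-0.83 to -0.73) and miR-223-3p furthest to the right (0.70).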

How the data were processed

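Small RNA libraries of TA muscle from 4 control and 5 LLC mice were made with the TruSeq Small RNA kit and sequenced single-end at 50 bp. The authors mapped reads with Bowtie (-n 0 -l 8, all best alignments) to the mature sequences of miRBase release 21, and deposited a table of raw counts of each mature miRNA for every library, neither normalized nor filtered. FastQC, HTSeq and DESeq2 are also named in the submitters' processing notes. Trimming and mapping were not repeated, and sequence variants of an arm are not separated in these counts. A read that matches entries equally well is counted at each.

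The 304 miRNAs that exceeded 32 counts in any library were fitted with edgeR 4.0.16 under R 4.3.3 (TMM on totals over all rows, quasi-likelihood F test, no block). Calls needed a fold change of 1.5 or more and a Benjamini-Hochberg adjusted p not above 0.05. Log2 CPM used a prior count of 2, and the log2 arm ratios of other hairpins used 0.5 added to each count. Correlations within groups used all rearrangements of the libraries within their groups, in Python 3.11.15 with scipy, and adjusted p-values cover the 2 statistics for the arms. Correlations with library measures were chosen after seeing the data and have no test. Shares have 95% Wilson intervals. The fit and the correlations were tested on simulated data. Alternatives were other scalings, DESeq2 1.42.0, limma 3.58.1 with voom, other filters, other prior counts, a replicate block and leaving out each library. Those without the miR-126b rows and without LLC 1 and LLC 5 were added after seeing the data.

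The arms, the lists and the design were chosen with earlier results of these data known. The miRNAs named were both arms and those of miR-126b. Of each list they were any called member, otherwise up to 3 with the largest absolute fold change and the most abundant. For each arm the 3 miRNAs with the highest correlation within groups were also named. Outside this rule, miR-206-3p, miR-10b-5p and miR-22-3p were chosen after their values were seen. Each library is 1 mouse. No library was a copy of another, as the lowest chi-square per degree of freedom between libraries of a group was 124. Names and positions were taken from RefSeq and GENCODE on GRCm38, and 1623 of 1679 RefSeq mature miRNAs had a row in the tables.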

Additional observations from a re-analysis of the deposited data

How the results depend on the processing

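The log2 fold change of miR-126a-3p stayed negative under all 22 alternatives (-0.43 to -0.11, and -0.36 to -0.23 when single libraries were left out). That of miR-126a-5p was -0.14 to -0.0069 without single libraries, and turned positive with upper quartile factors (0.039) and with scaling to miR-133a-3p and miR-133b-3p (0.0046). For the summed arms it was -0.16 to -0.04 without single libraries, 0.022 and 0.0075 with the same scalings, and -0.26 with library totals alone. The difference of the log2 arm ratio was 0.16 to 0.34 without single libraries, 0.21 with counts pooled by group, 0.17 with medians and 0.04 without LLC 1 and LLC 5. The correlation of the arms ranged from -0.27 (without LLC 3) to 0.20 (without LLC 6) without single libraries, was 0.16 with upper quartile factors, 0.80 with library totals, 0.13 with totals without the 5 most abundant miRNAs and 0.55 with scaling to miR-133a-3p and miR-133b-3p. It was 0.065 without LLC 1 and LLC 5, and 0.021 without them on library totals. The cause of these changes was not tested. Calls over all miRNAs were 8 with DESeq2, 22 of 932 without a filter, 0 to 8 when single libraries were left out (8 without LLC 3, 1 without LLC 1) and 1 without LLC 1 and LLC 5. Scaling with library totals or upper quartile factors shifted the median of all miRNAs by -0.14 and 0.13 from TMM. Libraries that share a number are different mice and did not deviate together (correlations -0.25 to -0.09). With the number as a replicate block the fold changes were -0.28 (3p), 0.016 (5p, reversed) and -0.012 (sum), the ratio difference was 0.30 and no miRNA was called. Only numbers 1 to 3 occur in both groups, so control 4, LLC 5 and LLC 6 add nothing to these block differences. Each arm had at least 9023 counts in every library. Each mouse gave 1 library, so differences between mice and between library preparations cannot be told apart.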

Other observations

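Other entries of the tables whose whole sequence is the reverse complement of part of another entry were compared with the pair of miR-126a-5p and miR-126b-3p, and 7 such pairs had a count. Counts differed by at most 2 in every library in 3 of the 7, all with few counts over the 9 libraries: 17 and 21 for miR-219a-5p and miR-219b-3p, 2 and 2 for miR-299b-3p and miR-299b-5p, and 0 and 1 for miR-5624-5p and miR-5624-3p. In the other 4 the counts were far apart, at 69 and 15352 for miR-3074-2-3p and miR-24-2-5p, 39 and 1178 for miR-142b and miR-142a-3p, 2 and 199 for miR-299b-3p and miR-299a-5p, and 0 and 679 for miR-374c-3p and miR-374b-5p. In these 4 the entry with more counts was the longer one, at 22, 23, 22 and 22 bases against 20, 20, 18 and 19. A whole read of the longer entry cannot fit within the shorter one. These 4 pairs therefore do not show whether reads were counted on both strands. These pairs were found after the values of the miR-126 rows were seen.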
